A study of Mus musculus with 25 samples.

Results

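*Lamp5*, *Lamp1*, *Lamp2* and *Lamp3* encode 4 glycoproteins of the lysosome-associated membrane protein family, and their mRNA on the ribosomes of spinal cord cholinergic neurons was followed here across *Bmal1* deletion and time of day. All 4 genes were among the 50559 genes listed, and 3 of them were among the 21738 with enough counts to be tested. *Lamp5* was selected from earlier results of these same genotype comparisons, in which it was higher without *Bmal1*, and the other 3 were added as its paralogs. The genotype difference of *Lamp5* is therefore described without a test. The paralogs and the comparisons between times within a genotype were not used in that choice. Levels of *Lamp5* relative to whole tissue rest on the same IP values, so a genotype difference in them restates the chosen one. Ribosomes carrying a hemagglutinin (HA) tag were immunoprecipitated (IP) from the spinal cord of male mice aged 6 mo, and the bound mRNA was sequenced. Controls (*ChAT-Cre;RiboTag fx/+*) carry the Cre and the tag alone, and *ChAT-BKO* mice also carry *Bmal1 fx/fx*, which removes *Bmal1* where Cre is made. Mice were taken at ZT8, in the light and rest period, or ZT20, in the dark and active period (n = 6 per condition, 1 spinal cord per library). Because Cre follows the *ChAT* gene, the tag marks every cell that makes or has made choline acetyltransferase, and not motor neurons alone. The input is RNA of whole spinal cord homogenate, pooled from mice with and without *Bmal1* into 1 library, so it has no replicate and cannot be split by genotype.

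LAMP1 and LAMP2 are abundant, heavily glycosylated proteins that line the inner face of the lysosomal membrane in nearly all cells. LAMP2 is made in 3 forms with different tails, of which LAMP2A is the receptor of chaperone-mediated autophagy. LAMP3 is best known from mature dendritic cells and from the alveolar cells that make surfactant. LAMP5, also named BAD-LAMP, is mostly a protein of the brain and spinal cord, where it is found at endings of inhibitory neurons, and its worm relative UNC-46 helps bring the vesicular GABA transporter to synaptic vesicles. BMAL1 pairs with CLOCK and binds E-boxes (CACGTG) in promoters.

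The ends of the coding sequences are shown because the tail of these proteins carries the signal that sorts them. Each line gives the last 45 coding bases before the stop codon in the GENCODE transcripts of GRCm38 (the assembly also named mm10), 5′ to 3′, with tyrosine codons in capitals. Only transcripts with a complete coding sequence are shown, so of the 2 coding transcripts of *Lamp5* only Lamp5-201 appears.
Lamp1-201: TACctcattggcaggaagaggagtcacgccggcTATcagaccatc
Lamp2-201: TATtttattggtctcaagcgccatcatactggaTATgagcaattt
Lamp2-202: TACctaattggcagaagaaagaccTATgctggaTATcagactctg
Lamp2-203: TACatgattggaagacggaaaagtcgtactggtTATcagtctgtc
Lamp3-201: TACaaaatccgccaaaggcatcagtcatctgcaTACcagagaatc
Lamp5-201: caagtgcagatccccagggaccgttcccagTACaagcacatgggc
In every *Lamp1*, *Lamp2* and *Lamp3* transcript shown, the last tyrosine codon was followed by 3 codons and then the stop codon. The family's known lysosomal sorting signal is a tyrosine and the 3 residues after it. In *Lamp5* the last tyrosine codon was followed by 4 codons, the last of which is for glycine and the one before it for methionine. A stretch of the same length is thus present in *Lamp5*, with the glycine codon between it and the stop codon. Only the distance to the stop codon was compared, and whether the *Lamp5* end holds a sorting signal was not tested. The coding sequence of *Lamp5* is also the shortest, at 280 codons against 406 in *Lamp1*, 411 in *Lamp3* and 415 or 416 in the *Lamp2* forms. The 3 *Lamp2* lines differ in this last stretch, but the counts are given per gene and do not tell the forms apart.

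The libraries held between 4.04 and 31.7 M counts. The deleted gene, listed as *Arntl*, fell by 1.64 on the log2 scale at ZT8 and by 2.08 at ZT20, with all 6 *ChAT-BKO* libraries below all 6 controls at each time. All 7 cholinergic markers were above the input in the IP, by a median of 2.36 on the log2 scale. Nothing in the sources used here ties same-numbered samples of different groups to one animal, litter or preparation.

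*Lamp5* stood at a higher level in *ChAT-BKO* neurons than in controls at both times of day. Levels are normalized counts in CPM, the counts of a gene scaled to the size of its library. At ZT8, the 6 control libraries held 132, 128, 125, 154, 151 and 134 CPM of *Lamp5*. The 6 *ChAT-BKO* libraries at ZT8 held 197, 210, 196, 197, 217 and 231 CPM. The groups did not overlap, and the lowest *ChAT-BKO* library lay well above the highest control. At ZT20, *Lamp5* was 144, 124, 125, 130, 140 and 139 CPM in controls. It was 213, 212, 220, 193, 185 and 230 CPM in *ChAT-BKO* neurons, again with no overlap. The difference was log2 0.60 at ZT8 (SE 0.07, 95% interval 0.47 to 0.74, 1.52-fold), from 137 ± 12.0 to 208 ± 14.1 CPM (SD, n = 6). It was log2 0.64 at ZT20 (SE 0.06, 95% interval 0.51 to 0.77, 1.56-fold), from 134 ± 8.49 to 209 ± 16.9 CPM (SD, n = 6). Among all genes tested, 0.396% at ZT8 and 0.359% at ZT20 likewise had each *ChAT-BKO* library above each control, and 0.184% and 0.230% passed an adjusted p of 0.05 in edgeR in either direction. Since *Lamp5* was chosen on these comparisons, nothing is read from these shares. The 95% intervals of *Lamp5* take no account of that choice either, and they are not read as a test. In IP libraries of this kind, a change in the share of cells that express a gene and a change in its mRNA per cell cannot be told apart.

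**Figure D1:**
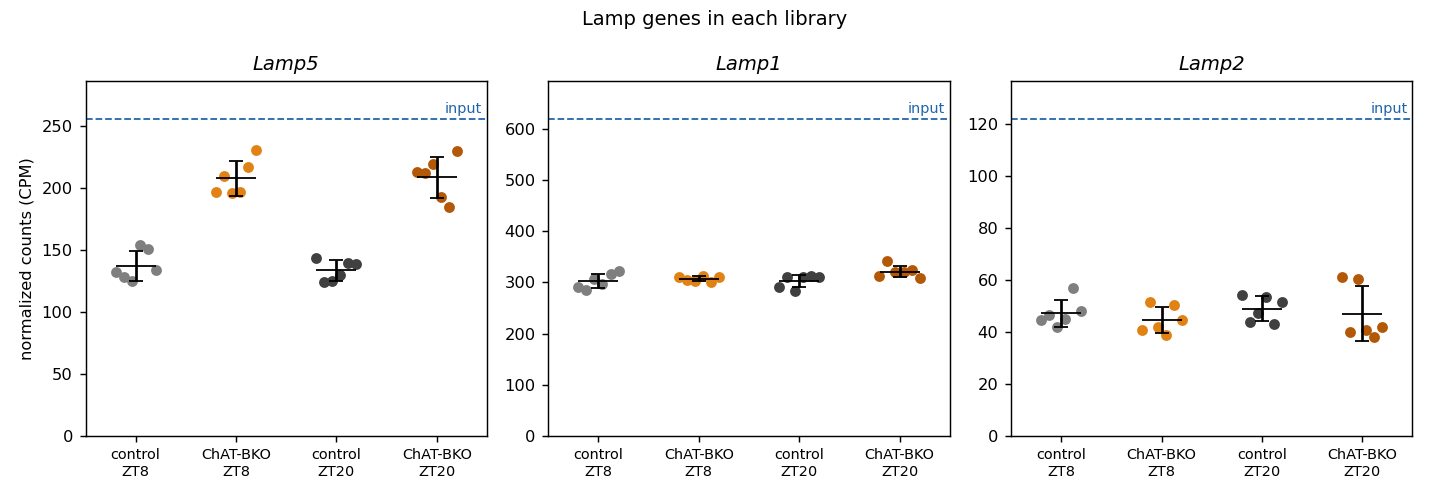
Normalized counts (CPM, linear axis from 0) of *Lamp5*, *Lamp1* and *Lamp2* in each IP library, by genotype and time. Points are libraries (n = 6 per group), black bars the mean ± SD, and the dashed line the pooled input. *Lamp5* lies at 185 to 231 CPM in *ChAT-BKO* libraries and at 124 to 154 CPM in controls, while the groups overlap for *Lamp1* and *Lamp2*, and all libraries of all 3 genes lie under the input.

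*Lamp1*, the most abundant of the 4, differed little by genotype, and neither of its 2 differences passed the test. At ZT8 it was 291, 286, 307, 298, 316 and 322 CPM in controls. In *ChAT-BKO* neurons at ZT8 it was 310, 305, 302, 313, 301 and 311 CPM, within the range of the controls. The difference was log2 0.02 (95% interval -0.07 to 0.12, adjusted p = 1.00 in edgeR). At ZT20, controls held 292, 311, 284, 310, 312 and 310 CPM of *Lamp1*. *ChAT-BKO* neurons held 313, 342, 321, 320, 324 and 309 CPM, and 5 of these 6 libraries lay above every control. This difference was log2 0.08 (95% interval -0.02 to 0.17, unadjusted p = 0.0978, adjusted p = 0.831 in edgeR), so the interval left room for a rise of up to 1.13-fold, and its lower end lay under 0.

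*Lamp2* ran at lower counts and varied more between mice. At ZT8 it ranged from 41.7 to 57.0 CPM in controls (47.1 ± 5.30, SD, n = 6) and from 38.9 to 51.5 CPM in *ChAT-BKO* neurons (44.6 ± 5.17). The ZT8 difference was log2 -0.08 (95% interval -0.26 to 0.10, adjusted p = 1.00 in edgeR). At ZT20 controls ranged from 43.1 to 54.3 CPM (49.0 ± 4.85), and *ChAT-BKO* neurons held 61.2, 40.1, 60.4, 40.9, 38.0 and 41.9 CPM. Replicates 1 and 3 of that group thus lay above every control and the other 4 below every control. The same 2 libraries were its deepest, with 17.5 and 18.7 M counts against 5.22 to 7.80 M in the rest, while the deepest control at ZT20, with 31.7 M, had the lowest *Lamp2* of its group. The part of depth in this spread was not tested. The ZT20 difference of *Lamp2* was log2 -0.03 (95% interval -0.27 to 0.21, adjusted p = 0.983 in edgeR), and its sign changed when single libraries were left out (-0.13 to 0.02).

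*Lamp3* was all but absent. A single count was recorded in the 24 IP libraries, in replicate 3 of *ChAT-BKO* at ZT20, and 0 in the input. In the input, 0 counts allow a level of up to 0.406 CPM (3 counts, counting error only), and in single IP libraries of up to 0.0947 to 0.743 CPM. No genotype or time difference of *Lamp3* was tested.

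Time of day, which played no part in choosing *Lamp5*, gave no call for any of the 3 genes tested. Between ZT8 and ZT20, *Lamp5* changed by log2 -0.04 in controls (95% interval -0.17 to 0.09, adjusted p = 0.929 in edgeR). In *ChAT-BKO* neurons it changed by log2 0.01 (95% interval -0.12 to 0.14, adjusted p = 0.992). The genotype effect at ZT20 exceeded that at ZT8 by log2 0.05 (95% interval -0.13 to 0.23). Both effects entered the choice of *Lamp5*, so their difference is described without a test. For *Lamp1*, ZT20 over ZT8 was log2 0.00 in controls (adjusted p = 0.997) and 0.07 in *ChAT-BKO* neurons (95% interval -0.03 to 0.16, adjusted p = 0.699). For *Lamp2* these values were log2 0.06 (adjusted p = 0.912) and 0.11 (95% interval -0.13 to 0.36, adjusted p = 0.842). The differences of genotype effects were 0.06 for *Lamp1* and 0.06 for *Lamp2* (adjusted p = 1.00 for both). Across all genes, 0.115% were called between the times in controls and 0.285% in *ChAT-BKO* neurons, against 0 of the 3 family members tested. For the difference of effects edgeR called 0 genes (0%), DESeq2 and limma voom also called 0, and 848 genes had an unadjusted p under 0.05 in edgeR. With samples at only 2 times, 12 h apart, a rhythm that peaks between them would not show in these comparisons.

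**Figure D2:**
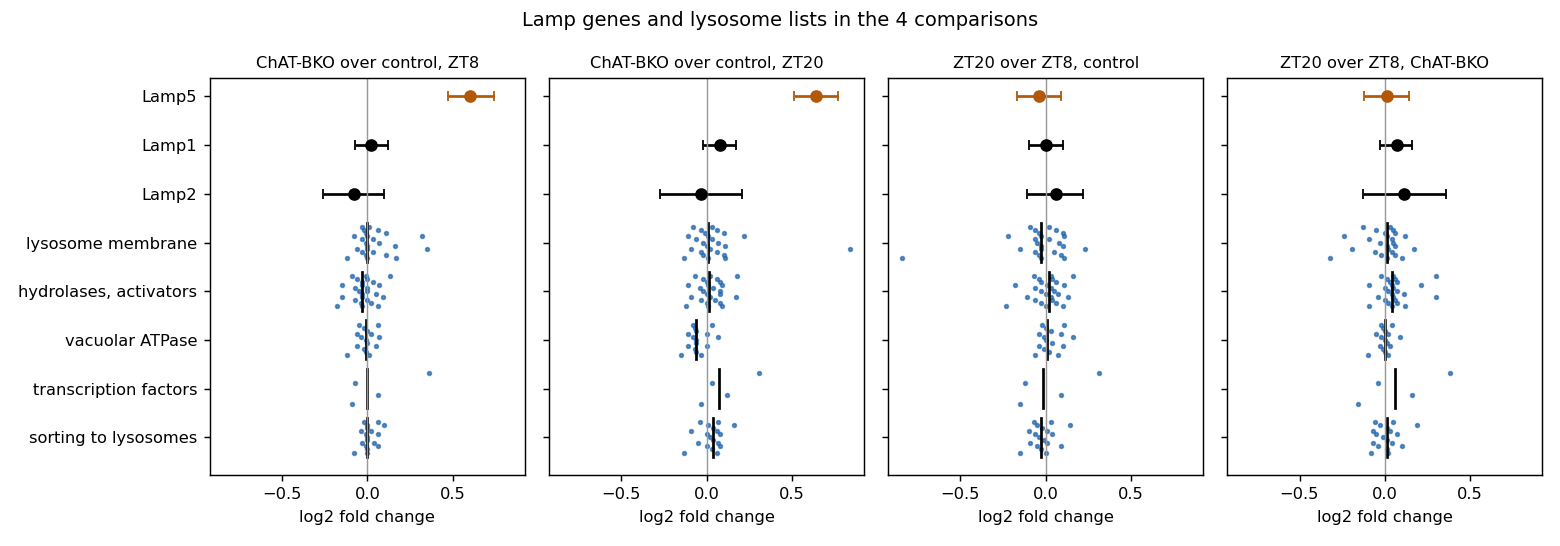
Log2 fold change in 4 comparisons, *ChAT-BKO* over control at ZT8 and ZT20 and ZT20 over ZT8 in controls and in *ChAT-BKO*. The 3 upper rows show single genes with 95% intervals, and the lower rows show the genes of 5 lysosome lists as points, spread vertically for legibility, with the list median as a black bar. *Lamp5* lies at 0.60 and 0.64 in the genotype panels and at -0.04 and 0.01 in the time panels, and the list medians lie between -0.06 and 0.07.

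Per length of transcript, *Lamp1* was the highest of the family in every group, followed by *Lamp5*, *Lamp2* and *Lamp3*. On the scale of CPM per kb of merged exons, *Lamp1* stood at 113 ± 5.26 in controls at ZT8, *Lamp5* at 46.8 ± 4.10 and *Lamp2* at 4.93 ± 0.555 (SD, n = 6). In *ChAT-BKO* neurons at ZT8, *Lamp1* stood at 115 ± 1.84, *Lamp5* at 70.9 ± 4.81 and *Lamp2* at 4.67 ± 0.541 CPM per kb. The ranges of neighbours in this order did not overlap in any group, apart from *Lamp2* and *Lamp3*, whose order rests on a gene at or near 0. *Lamp5* thus made up 28.4% ± 1.72 of the summed level of the family per kb in controls and 37.2% ± 1.53 in *ChAT-BKO* neurons at ZT8. At ZT20 these shares were 27.8% ± 1.38 and 36.3% ± 2.14, and in the input 26.3%. With the longest transcript of each gene in place of merged exons, the *Lamp5* shares at ZT8 became 32.0% and 41.4%, with the same order of genes. *Lamp2*, whose merged exons (9552 bases) are much longer than its longest transcript (3604 bases), moved most, from 3.97 to 6.41 CPM per kb over the IP libraries to 10.5 to 17.0, and from 2.98% to 5.95% of the family in controls at ZT8.

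The ratio of 2 genes within a library is free of the scaling between libraries. For every 100 *Lamp1* counts, control libraries at ZT8 held 45.2 *Lamp5* counts (geometric mean, range 40.7 to 51.5) and *ChAT-BKO* libraries 67.6 (63.0 to 74.3). At ZT20 controls held 44.0 (39.9 to 49.3) and *ChAT-BKO* libraries 64.9 (57.2 to 74.4), and the input held 41.2. The genotypes did not overlap at either time, but this ratio carries the *Lamp5* difference that chose the gene, so nothing is read from that. The genotype difference of this ratio was log2 0.58 at ZT8 and 0.56 at ZT20, and with *Lamp2* in the denominator it was 0.68 and 0.72. Between ZT8 and ZT20 the ratio to *Lamp1* changed by log2 -0.04 in controls (p = 0.556, two-sided exact permutation test, n = 6 per time) and by -0.06 in *ChAT-BKO* neurons (exact permutation p = 0.407), where the smallest p the design allows is 0.00216.

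**Figure D3:**
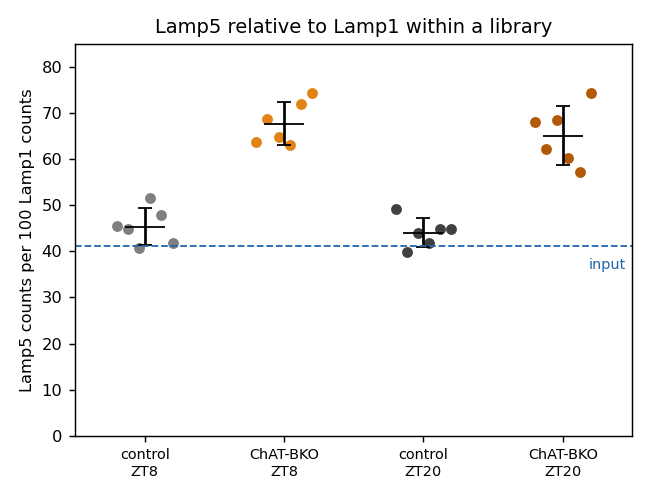
*Lamp5* counts per 100 *Lamp1* counts in each IP library (linear axis from 0), by genotype and time, with mean ± SD in black (n = 6) and the pooled input as a dashed line. Control libraries lie at 39.9 to 51.5 and *ChAT-BKO* libraries at 57.2 to 74.4.

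The label of a neuronal *Lamp5* beside general paralogs was set against the input, which holds all cell types of the cord. None of the 3 genes was enriched in cholinergic ribosomes over whole tissue by library totals. *Lamp5* was 256 CPM in the input, above all 24 IP libraries. In controls its IP level was 53.7% of the input at ZT8 and 52.2% at ZT20, and in *ChAT-BKO* neurons 81.4% and 81.8%. As a log2 ratio over the 12 libraries of a genotype, *Lamp5* was -0.92 in controls and -0.29 in *ChAT-BKO* neurons. *Lamp1*, at 620 CPM in the input, was -1.03 and -0.98, and *Lamp2*, at 122 CPM, was -1.34 and -1.40. The median over 15758 genes was -0.52, so in controls 39.4% of genes had a lower ratio than *Lamp5*, 36.2% a lower ratio than *Lamp1* and 29.4% a lower ratio than *Lamp2*. In *ChAT-BKO* neurons 57.1% of genes had a lower ratio than *Lamp5*. Both genotypes are set against the same input value, so this shift of *Lamp5* is the genotype difference on which it was chosen. When the scaling factors were computed with the input included, the median of all genes became -0.07, *Lamp5* moved to -0.46 in controls and to 0.16 in *ChAT-BKO* neurons, which reversed its direction there, and *Lamp1* and *Lamp2* stayed below the input, at -0.58 and -0.88 in controls. With 1 input library these ratios carry no test.

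**Figure D4:**
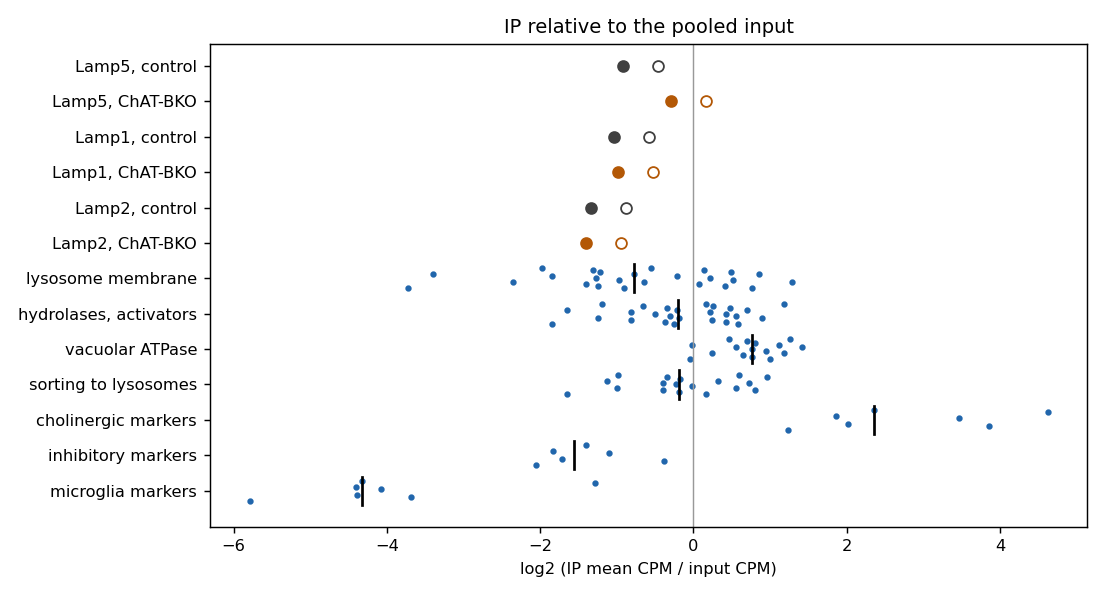
Log2 ratio of mean IP to input CPM. Filled circles are *Lamp5*, *Lamp1* and *Lamp2* in controls (grey) and *ChAT-BKO* (orange, 12 libraries each) by library totals, open circles the same with the input included in the scaling, and blue points single genes of 7 lists over all 24 IP libraries with the list median in black. *Lamp5* lies at -0.92 in controls and -0.29 in *ChAT-BKO*, between the medians of the inhibitory markers (-1.56) and the cholinergic markers (2.36). The control value lies within the range of the inhibitory markers (-2.05 to -0.39).

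Markers of inhibitory neurons, the cells in whose endings LAMP5 protein is known, were 0 of 6 above the input (median -1.56 on the log2 scale, and 1 of 6 with the input in the scaling), but were not at 0 in the IP. *Gad1*, which makes GABA, averaged 128 CPM over the IP libraries, *Slc6a5*, the glycine transporter of inhibitory endings, 116 CPM and *Slc32a1*, the vesicular transporter of both, 80.2 CPM. The summed level of the 6 markers was 321 to 374 CPM in controls and 339 to 427 CPM in *ChAT-BKO* libraries at ZT8, and 371 to 448 and 324 to 437 CPM at ZT20. The genotype groups overlapped at both times, the median genotype difference of these markers was log2 0.11 at ZT8 and -0.05 at ZT20, and edgeR called 0 of 6 (0 with an unadjusted p under 0.05). Summed levels of excitatory (47.0 to 71.4 CPM), microglial (10.7 to 16.5), astrocyte (166 to 263) and endothelial markers (6.36 to 18.1) also overlapped between genotypes. So did those of oligodendrocyte markers, which were far higher in the IP, at 1660 to 2490 CPM against 23300 CPM in the input. Of the 8 marker lists, edgeR called genes in skeletal muscle alone, 3 of 6 at ZT20, where the summed level was 5.34 to 22.1 CPM in controls and 3.70 to 79.8 in *ChAT-BKO* libraries. At ZT8 it was 1.29 to 87.7 and 3.14 to 132 CPM, with 0 of 6 called. The part of any of these cell types in the *Lamp5* difference was not tested. *Chat* and the other 6 cholinergic markers held 0 calls.

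The rest of the lysosome showed no genotype call. The 5 lists held 89 genes in all, without the 4 *Lamp* genes. They covered other lysosomal membrane proteins (25 genes), hydrolases and their activators (26) and subunits of the vacuolar ATPase that acidifies the lysosome (16). Sorting factors (18) and transcription factors (4) made up the rest. In edgeR 0 of 89 were called at ZT8 and 0 at ZT20, against 0.184% and 0.230% of all genes. An unadjusted p under 0.05 was reached by 3 of them at ZT8 (3.37%, against 4.83% of all genes) and by 5 at ZT20 (5.62%, against 6.28%). DESeq2 and limma voom also called 0 at both times, with 4 unadjusted in each. The median genotype difference over the 89 genes was log2 0.00 at ZT8 and 0.01 at ZT20, beside 0.00 and -0.01 over all genes.

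Among these, *Laptm4b*, a membrane protein of late endosomes and lysosomes, came closest at ZT8. It was 284 ± 14.2 CPM in controls and 316 ± 5.86 in *ChAT-BKO* neurons, with all 6 above all 6, as in 0.396% of all genes tested. The difference was log2 0.16 (SE 0.05, adjusted p = 0.589 in edgeR), and at ZT20 it was log2 0.06 (adjusted p = 0.875). *Grn*, which encodes the lysosomal protein progranulin, came closest at ZT20, with 35.9 ± 2.75 CPM in controls and 41.0 ± 2.57 in *ChAT-BKO* neurons (log2 0.18, SE 0.07, adjusted p = 0.652). *Mitf*, a relative of *Tfeb*, had log2 0.36 at ZT8 (SE 0.13, adjusted p = 0.787) and 0.31 at ZT20 (SE 0.12, adjusted p = 0.682). *Cd68*, a macrophage relative of the *Lamp* family, was 0.287 ± 0.106 CPM in controls and 0.494 ± 0.197 in *ChAT-BKO* neurons at ZT20 (log2 0.84, SE 0.40, adjusted p = 0.783), at a level near the floor of a library. Of the lysosome genes with an unadjusted p under 0.05 at ZT20 in edgeR, 4 were higher in *ChAT-BKO* neurons and 1 lower. The lower was *Ap3s2*, a sorting factor, at 230 ± 4.34 CPM in controls and 217 ± 3.20 in *ChAT-BKO* neurons (log2 -0.09, SE 0.04, adjusted p = 0.774). None of the genes named here passed the test.

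Between ZT8 and ZT20, edgeR again called 0 of the 89 lysosome genes in controls and 0 in *ChAT-BKO* neurons, with 6 unadjusted in each (6.74%, against 8.25% and 9.42% of all genes). DESeq2 called 1 in each, *Abcb9* in controls and *Grn* in *ChAT-BKO* neurons, and limma voom called 0 with 8 and 6 unadjusted. *Grn* was 33.2 ± 2.62 CPM at ZT8 and 41.0 ± 2.57 at ZT20 in *ChAT-BKO* neurons (log2 0.30, SE 0.07, adjusted p = 0.0805 in edgeR), and log2 0.16 in controls (adjusted p = 0.495). *Tfeb*, the main transcription factor of lysosomal genes, had log2 0.38 in *ChAT-BKO* neurons (SE 0.11, adjusted p = 0.212) and 0.31 in controls (SE 0.11, adjusted p = 0.403). *Abcb9*, a peptide transporter of the lysosomal membrane, had log2 -0.15 in controls (SE 0.05, adjusted p = 0.365). *Tpp1*, a lysosomal peptidase, had log2 0.30 in *ChAT-BKO* neurons (SE 0.12, adjusted p = 0.405). Of the sorting factors, *Vps39* had log2 -0.15 in controls (adjusted p = 0.410) and *Gnptab* 0.19 in *ChAT-BKO* neurons (adjusted p = 0.489), and of the vacuolar ATPase *Atp6ap2* had 0.10 (adjusted p = 0.638) and *Atp6v1g1* 0.16 in controls (adjusted p = 0.664).

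The lysosome lists differed from one another against the input. By library totals, 14 of 16 vacuolar ATPase genes were higher in the IP (median log2 0.77, and 16 of 16 with the input in the scaling), among them *Atp6v1e1* at 1.41. Of the hydrolases and activators, 12 of 26 were higher (median -0.20, and 18 of 26 at a median of 0.25 with the input in the scaling), with the protease gene *Ctsd* at 1.18. Of the other membrane proteins, 9 of 25 were higher (median -0.78, and 10 of 25 at -0.33), from *Cd68* at -3.72 to *Abcb9* at 1.29. *Lamp1*, *Lamp2* and, in controls, *Lamp5* lay below the median of that list, and *Lamp5* in *ChAT-BKO* neurons above it.

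The genes whose pattern over the 24 IP libraries was most like that of *Lamp5* were sought among 13721 genes with a mean of at least 1 CPM, on log2 CPM. Among the closest were *Cry1* (Pearson r = 0.959, Spearman rho 0.862), *Prkcd* (0.929, 0.884), *Cry2* (0.927, 0.852) and *Il4ra* (0.917, 0.868). *Cry1* and *Cry2* encode the clock repressors that BMAL1 and CLOCK act on, *Prkcd* a protein kinase C, and *Il4ra* a cytokine receptor chain. Their genotype differences were log2 2.09 and 2.15 (ZT8 and ZT20) for *Cry1*, 0.24 and 0.26 for *Prkcd*, 0.32 and 0.39 for *Cry2*, and 0.40 and 0.44 for *Il4ra*. The *Lamp5* values of the libraries fall into 2 groups by genotype, so these correlations describe the genotype difference that chose *Lamp5*. With group means removed they fell to 0.355 to 0.553. On values with group means removed, the most similar genes were *Nfe2l1* (r = 0.897), *Syngr1* (0.887), *Pcnx2* (0.867), *Gon4l* (0.863) and *Zfyve9* (0.862), none of which had a genotype difference beyond log2 0.11. Libraries share their depth and preparation across genes, and no test was made of these correlations. With the paralogs, *Lamp5* had r = 0.437 (*Lamp1*) and -0.0622 (*Lamp2*) on values, and 0.0557 and 0.469 with group means removed.

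The promoters are shown because BMAL1 is known to bind E-boxes. Each line holds the 250 bases before a RefSeq transcription start in GRCm38.p6, read 5′ to 3′ on the gene's strand, with CACGTG in capitals.
Lamp1 promoter, chr8:13158911-13159160, plus strand: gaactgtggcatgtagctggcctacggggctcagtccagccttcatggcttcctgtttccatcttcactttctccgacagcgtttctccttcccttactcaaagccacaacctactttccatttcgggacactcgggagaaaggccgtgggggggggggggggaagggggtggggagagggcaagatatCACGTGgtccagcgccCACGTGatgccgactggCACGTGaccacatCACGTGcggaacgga
Lamp5 promoter, upstream start, chr2:136052089-136052338, plus strand: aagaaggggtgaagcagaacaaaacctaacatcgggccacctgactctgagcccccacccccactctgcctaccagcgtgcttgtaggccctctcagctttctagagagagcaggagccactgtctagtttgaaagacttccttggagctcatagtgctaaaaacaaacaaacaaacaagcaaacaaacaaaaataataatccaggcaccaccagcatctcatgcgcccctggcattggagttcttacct
Lamp5 promoter, downstream start, chr2:136057498-136057747, plus strand: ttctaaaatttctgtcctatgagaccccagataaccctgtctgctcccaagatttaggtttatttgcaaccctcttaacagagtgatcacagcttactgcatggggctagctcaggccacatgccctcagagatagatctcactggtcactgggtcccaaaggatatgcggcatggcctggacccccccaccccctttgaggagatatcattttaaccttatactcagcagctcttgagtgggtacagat
The *Lamp1* window held 4 E-boxes, which begin 61, 45, 28 and 15 bases before the start site. Both *Lamp5* windows held 0, as did those of *Lamp2* (chrX:38456461-38456710, minus strand) and *Lamp3* (chr16:19706366-19706615, minus strand). CACGTG, which reads the same on both strands, was found in 1978 of 32851 RefSeq windows of this length (6.02%), and 4 or more in 7 of them (0.0213%). A variant E-box, CACGTT, searched on both strands, was in 3.85% of windows and in none of the 5 windows of the family. These matches describe letters within 250 bases and not binding, by BMAL1 or by any other factor, and their part in the levels of these genes was not tested.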

How the data were processed

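Polyadenylated RNA of 24 IP libraries and 1 pooled input was sequenced, and per the labels the reads were aligned with STAR 2.7.5 to mm10 and counted with RSEM. The authors deposited the expected counts of each gene, neither normalized nor filtered, of which 6.11% were not whole. They were rounded to whole numbers here. Groups and replicate numbers come from the sample labels, and 0 columns were left out. Genes whose counts over the 24 IP libraries added up to 10 or more were tested in R 4.3.3 with edgeR 4.0.16 (TMM scaling, quasi-likelihood test, two-sided), each comparison of 2 groups on its own 12 libraries and the difference of effects on all 24, with Benjamini-Hochberg adjustment over all genes tested and a call at an adjusted p under 0.05. The SE was derived from the F statistic and the 95% interval from the t distribution. CPM use TMM-scaled totals, log2 CPM a prior count of 2, and ratios to the input plain totals for the input with 0.1 CPM added.

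The members, the gene lists and the markers were chosen with earlier results of these data known. The genes named are the members, *Arntl*, list genes called, the 2 genes of each lysosome list with the smallest p in any comparison, and the genes most like each member (5 for *Lamp5*, of which 1 is not reported here, and 3 for the others). Others, such as *Cd68*, *Ap3s2*, *Ctsd*, *Atp6v1e1*, the inhibitory markers and the neighbours on the chromosome, were named after their values were seen. Gene positions, lengths and coding ends are from GENCODE on GRCm38, a different release from the study's Ensembl annotation, and promoters from RefSeq. Total counts per library were 6.78 to 18.6 M (control ZT8), 4.04 to 17.4 M (*ChAT-BKO* ZT8), 10.6 to 31.7 M (control ZT20), 5.22 to 18.7 M (*ChAT-BKO* ZT20) and 7.40 M (input), which limits the precision of low genes. Libraries of a group differed by 1.80 to 25.4 times the counting noise (chi-square per degree of freedom, 60 pairs), so none was a copy of another. The alternatives were DESeq2 1.42.0, edgeR with size factors of DESeq2, no filter, filterByExpr, the replicate number as a block, all 24 libraries in the fit, limma voom 3.58.1 with quality weights, and each library left out in turn. Each edgeR fit was checked on simulated counts with known changes. Differential splicing, protein data and the time course of the study were not analysed here.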

Additional observations from a re-analysis of the deposited data

How the results depend on the processing

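The *Lamp5* genotype difference kept its direction in every alternative run, at log2 0.59 to 0.61 at ZT8 and 0.64 to 0.65 at ZT20 over 7 other fits, and at 0.57 to 0.64 and 0.61 to 0.67 with single libraries left out. These runs reuse the libraries on which *Lamp5* was chosen, and the genotypes did not overlap in them. The kept direction is therefore no support for the difference. No contrast of *Lamp1* or *Lamp2*, their differences of genotype effects included, and no time contrast of *Lamp5* passed an adjusted p of 0.05 in any alternative, the smallest being 0.572. With single libraries left out, values near 0 changed sign: *Lamp2* by genotype at ZT20 (-0.13 to 0.02), *Lamp5* between times in *ChAT-BKO* neurons (-0.02 to 0.04), and the difference of genotype effects of *Lamp2* (-0.03 to 0.11). Against the input, scaling factors computed with the input moved *Lamp1* to -0.58 (controls) and -0.53 (*ChAT-BKO*), *Lamp2* to -0.88 and -0.95, and *Lamp5* to -0.46 and 0.16. Lysosome list genes called between times rose from 0 to 1 in controls with DESeq2 and from 0 to 1 in *ChAT-BKO* neurons with DESeq2 and with all 24 libraries in the fit, and the cause was not tested. Counts of all genes called by edgeR moved by over 1.5 times in the replicate block at ZT8 (40 to 69) and between times in controls (25 to 86), with all 24 libraries between times in *ChAT-BKO* neurons (62 to 140), and with DESeq2 (70 at ZT8, 93 at ZT20, 127 and 218 between times). They also fell by over 1.5 times with single libraries left out: at ZT8 to 19 and 23 without *ChAT-BKO* replicates 3 and 1 and to 25 without control replicate 4, and at ZT20 from 50 to 29 without control replicate 3 or 4 and to 30 without *ChAT-BKO* replicate 1. Between times in *ChAT-BKO* neurons they fell to 33, 36 and 37 without ZT8 replicates 1, 5 and 3. In controls they fell to 11 to 16 without any 1 of 8 of the 12 libraries, the exceptions being ZT8 replicates 2, 3 and 5 and ZT20 replicate 5 (22 to 28).

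The replicate numbers shared by the groups were not taken as pairs. Deviations of same-numbered libraries correlated at -0.17 to 0.27 at ZT8, -0.08 to 0.24 at ZT20, 0.01 to 0.36 between times in controls and -0.20 to 0.10 in *ChAT-BKO* neurons. Their means were 0.05, 0.06, 0.12 and -0.07, against -0.01, -0.01, -0.02 and 0.01 for libraries of different number. Values this small cannot decide whether same-numbered libraries share a weak tie. With the replicate block, the *Lamp5* genotype difference was log2 0.61 at ZT8 and 0.64 at ZT20, and no call of a *Lamp* or lysosome list gene changed. *Lamp3* had too few counts for any fit. The 1 input library and the lowest depth, 4.04 M, limit what ratios to whole tissue and low genes can show.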

Other observations

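The protein-coding genes next to *Lamp5* and *Lamp1* on the chromosome were followed beside them. The nearest to *Lamp5* on chromosome 2 is *Pak5* (*Pak7* in the annotation), a kinase gene on the opposite strand, 11186 bases away in GRCm38. It averaged 2.67 CPM in the IP and differed by genotype by log2 0.11 at ZT8 (95% interval -0.29 to 0.51) and -0.14 at ZT20 (95% interval -0.63 to 0.34). *Plcb4*, a phospholipase C gene, lies before *Lamp5* on the same strand, 37645 bases away. It averaged 76.4 CPM in the IP and differed by genotype by log2 -0.05 at ZT8 (95% interval -0.17 to 0.08) and -0.02 at ZT20 (95% interval -0.15 to 0.11). *Cul4a*, a cullin of a ubiquitin ligase, ends 11220 bases before *Lamp1* on chromosome 8, on the same strand, and was among the 3 genes most like *Lamp1* over the 24 IP libraries, out of 13721 (r = 0.753 on values, rho 0.660). With group means removed it was the most similar (r = 0.753, and 0.677 without the 2 libraries farthest from the median of *Lamp1*). Its genotype difference was log2 0.20 at ZT8 (95% interval -0.03 to 0.43, adjusted p = 1.00 in edgeR). At ZT20 it was 0.22 (95% interval 0.03 to 0.40, unadjusted p = 0.0239, adjusted p = 0.713 in edgeR). The other 2 on values were *Sec23ip* (r = 0.779, and 0.593 without the 2 farthest libraries) and *4930402H24Rik* (0.775, and 0.788). *Grtp1*, on the opposite strand, overlaps the end of *Lamp1* and averaged 3.56 CPM, and whether the counting used strand is not given in the sources used here. It differed by genotype by log2 0.19 at ZT8 and -0.01 at ZT20. *Adprhl1*, 46324 bases beyond *Lamp1* on the opposite strand, averaged 1.31 CPM. It differed by log2 -0.03 at ZT8 (95% interval -0.57 to 0.50) and 0.62 at ZT20 (95% interval 0.04 to 1.20, adjusted p = 0.773 in edgeR).

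*Lamp2*, whose spread within groups reached a CV of 22.8% at ZT20 in *ChAT-BKO* neurons, was most like *Ddx3x* (r = 0.908), *Edil3* (0.905) and *Spock1* (0.897) on values, and *Ubr1* (0.933) with group means removed, across genes that share each library's depth and preparation. Without the 2 libraries farthest from its median, which are replicates 1 and 3 of *ChAT-BKO* at ZT20, these were 0.864, 0.888, 0.887 and 0.884.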
